A study of Mus musculus with 16 samples.

Results

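Integrin chains and laminin chains were followed across 4 mouse mammary tumour cell lines that carry a HER2 transgene. MI6 and MI7 express d16HER2, the splice form of the receptor that lacks exon 16, whereas WTHER2-1 and WTHER2-2 express the full-length (WT) receptor. Each line had 4 arrays, which gave 8 arrays per transgene and 16 in all on 6 Illumina BeadChips, and every comparison asks how these lines differ in steady-state messenger RNA. All 4 lines are thus HER2-positive, no line without the transgene was measured, and the promoter that drives the transgene is not given in the sources used here. The genes were 30 integrin and laminin symbols with all probes annotated to them, and each gene was read by its brightest probe that passed the detection filter, a detection p under 0.05 on at least 4 arrays. Of the 30 genes, 28 had an annotated probe, 64 probes in all, and 21 passed the filter, among 10724 genes tested. Levels are log2 intensities after background correction and quantile normalization, given as mean ± SD over the 4 arrays of a line, and they are compared between lines for 1 probe and never between genes.

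Integrins are cell surface receptors made of an alpha and a beta chain, and the pair decides which matrix protein is bound. Pairs with alpha5 or alphav bind the RGD motif of fibronectin, vitronectin and latent TGF-beta, alpha2 with beta1 binds collagen, and alpha3beta1, alpha6beta1 and alpha6beta4 bind laminin. Laminins are trimers of an alpha, a beta and a gamma chain that form the basement membrane under mammary epithelium, where alpha6beta4 anchors the cells in hemidesmosomes. A beta1 chain can serve many alpha chains, so the transcript of a beta chain does not tell which receptor is on the surface.

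The promoter windows of 6 members that the results turn on are given here, taken from RefSeq on GRCm38.p6, each 300 bases long and ending shortly after the annotated start, and read 5′ to 3′ on the gene's strand. These members were chosen because Itga5 and Itgav were called between the transgenes, Itga9, Itgb6 and Itga2 were each dim or undetected on arrays of some lines and bright on those of others, and Lamb3 was the laminin chain with the widest spread. Capitals mark 3 motifs searched on both strands, the E-box CACCTG that Snail and Zeb proteins can bind, the AP-1 motif TGANTCA and the GC box GGGCGG, and no marked motifs overlapped.
Itga5, chr15:103366742-103367041, minus strand: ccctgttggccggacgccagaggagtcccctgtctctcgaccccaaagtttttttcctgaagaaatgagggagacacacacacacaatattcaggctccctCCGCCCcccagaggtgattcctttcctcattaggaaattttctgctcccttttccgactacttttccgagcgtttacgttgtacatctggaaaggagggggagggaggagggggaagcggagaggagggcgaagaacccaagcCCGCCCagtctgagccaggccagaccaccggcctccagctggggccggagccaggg
Itgav, chr2:83724147-83724446, plus strand: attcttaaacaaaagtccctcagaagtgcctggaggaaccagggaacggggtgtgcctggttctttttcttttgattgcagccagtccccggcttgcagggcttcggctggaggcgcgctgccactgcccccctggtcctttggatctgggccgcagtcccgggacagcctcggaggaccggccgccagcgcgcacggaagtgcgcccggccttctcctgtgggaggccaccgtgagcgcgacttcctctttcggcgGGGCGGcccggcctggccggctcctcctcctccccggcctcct
Itgb6, the longer of the listed transcripts, chr2:60722554-60722853, minus strand: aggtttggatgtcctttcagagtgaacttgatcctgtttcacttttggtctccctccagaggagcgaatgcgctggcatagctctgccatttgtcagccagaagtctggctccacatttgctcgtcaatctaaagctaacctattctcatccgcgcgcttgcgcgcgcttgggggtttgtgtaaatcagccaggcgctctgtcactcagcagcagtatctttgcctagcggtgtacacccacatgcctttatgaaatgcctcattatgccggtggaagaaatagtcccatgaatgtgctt
Itga9, chr9:118711442-118711741, plus strand: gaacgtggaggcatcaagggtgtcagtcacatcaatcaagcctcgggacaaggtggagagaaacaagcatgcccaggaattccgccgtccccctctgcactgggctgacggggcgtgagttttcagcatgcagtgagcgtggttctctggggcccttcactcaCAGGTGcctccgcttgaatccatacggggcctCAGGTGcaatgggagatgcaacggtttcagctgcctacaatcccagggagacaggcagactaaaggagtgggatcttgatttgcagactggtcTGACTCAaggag
Itga2, chr13:114932051-114932350, minus strand: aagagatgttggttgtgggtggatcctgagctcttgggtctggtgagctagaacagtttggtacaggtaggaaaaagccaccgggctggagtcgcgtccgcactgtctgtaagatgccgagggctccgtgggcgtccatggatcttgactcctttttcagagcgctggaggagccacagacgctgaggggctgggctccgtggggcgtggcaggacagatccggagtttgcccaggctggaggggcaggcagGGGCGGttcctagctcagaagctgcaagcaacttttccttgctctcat
Lamb3, the downstream of both listed starts, chr1:193301993-193302292, plus strand: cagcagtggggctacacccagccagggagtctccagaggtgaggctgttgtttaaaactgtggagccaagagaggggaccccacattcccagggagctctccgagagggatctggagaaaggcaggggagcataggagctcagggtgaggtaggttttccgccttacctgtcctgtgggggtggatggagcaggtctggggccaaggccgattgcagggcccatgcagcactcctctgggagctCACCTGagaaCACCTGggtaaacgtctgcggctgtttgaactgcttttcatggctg

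The Itga5 window held 2 GC boxes, those of Itgav and Itga2 held 1 each, and the Itgb6 window shown held none of the motifs, while the other listed Itgb6 window held 1 E-box. The Itga9 window held 2 E-boxes and 1 AP-1 motif, and the Lamb3 window shown held 2 E-boxes, while the other listed Lamb3 window held none of the motifs. For Itgb6 and Lamb3, which had 2 listed windows each, the window shown was chosen after the motifs were seen. A window was listed for 20 of the 30 members, and the 15 measured members among them had 18 windows, of which 7 held the E-box, 2 the AP-1 motif and 9 the GC box. Over all 32851 listed windows of 300 bases, 20.2% held the E-box, 7.81% the AP-1 motif and 35.7% the GC box. A match is only a run of letters, and no factor was measured on these windows.

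The 16 arrays detected 35.8% to 42.4% of 45281 probes, with a median raw intensity of 83.5 to 149. Across genes, which are not replicates, the lowest correlation between arrays of the same line was 0.958 to 0.977 in MI6, MI7 and WTHER2-1 and 0.852 in WTHER2-2, where the 2 arrays on BeadChip 4 stood apart from the 2 on BeadChip 3. The labelled mammary tumour origin was checked with 10 epithelial markers, of which 9 were measured. Their mean level was 11.69 to 11.88 on the MI6 arrays. It was 11.75 to 11.96 on those of MI7 and 10.88 to 11.38 on those of WTHER2-1. In WTHER2-2 it was 11.74 and 11.66 on BeadChip 3 but 8.58 and 6.49 on BeadChip 4, where 8 and 5 of the 9 markers were detected, and the summed intensity of the list ran 74900, 69500, 8310 and 1720. Fibroblast markers, 6 measured of 10, moved the other way there, with means of 8.27 and 8.49 on BeadChip 3 and 11.95 and 11.33 on BeadChip 4. Results that rest on WTHER2-2 are therefore given with and without the BeadChip 4 arrays. In RNA of whole cultures, fewer cells of a type and less RNA per cell cannot be told apart, nor can BeadChip and transgene, since no BeadChip held lines of both transgenes.

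**Figure D1:**
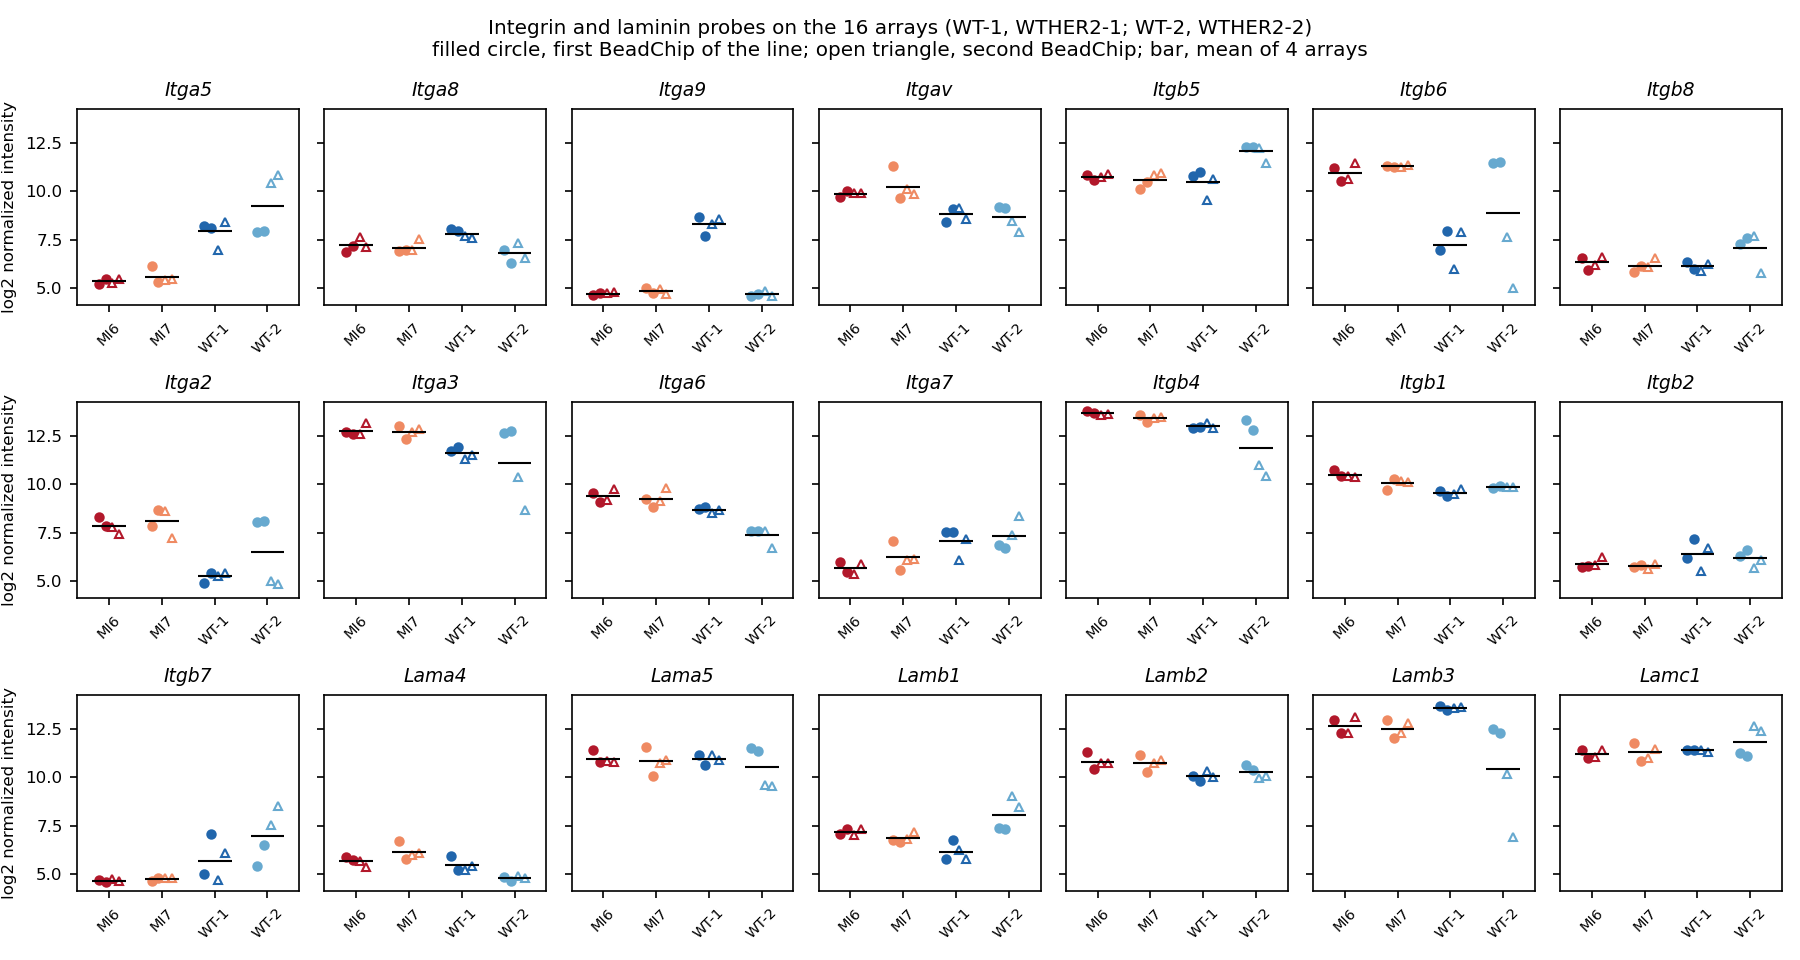
Level of each of the 21 measured members on each of the 16 arrays (log2 intensity), grouped by role and by line. Itga5 lies between 5.19 and 6.13 on the 8 d16HER2 arrays and between 6.97 and 10.83 on the 8 WT HER2 arrays, and the last 2 columns of WTHER2-2, on BeadChip 4, stand apart for Itgb6, Itga3, Itgb4 and Lamb3.

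Among the fibronectin- and RGD-binding integrins, Itga5 was lower and Itgav higher in both d16HER2 lines than in both WT HER2 lines. Itga5 encodes alpha5, the chain that with beta1 forms the main fibronectin receptor of many cells. It read 5.19, 5.46, 5.28 and 5.49 on the MI6 arrays and 6.13, 5.31, 5.42 and 5.48 on the MI7 arrays. In WTHER2-1 it read 8.23, 8.13, 6.97 and 8.42, and in WTHER2-2 it read 7.88, 7.95, 10.43 and 10.83. The groups did not overlap, and Itga5 was detected on 1 of the 8 d16HER2 arrays and on all 8 WT HER2 arrays. Since MI6 never detected it, its level there is an upper bound, and Itga5 was at least 4.93-fold higher in WTHER2-1 and at least 12.5-fold higher in WTHER2-2 than in MI6. Without the BeadChip 4 arrays the bound for WTHER2-2 was 4.85-fold. A bound here sets the bright line's mean against, on each dim array, the lowest signal that counts as detected or the probe's own signal where that is higher.

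The 4 lines give 4 pairs across the transgenes, and a gene counted as separated where each pair differed in 1 direction by at least 1 on the log2 scale with a limma adjusted p under 0.05. Itga5 was the 1 member of 21 separated downward, against 2.46% of all genes. It passed the detection filter through the WT HER2 arrays, where it is high, so the filter favoured this call and no p of a pair is given. The differences for MI6 were -2.58 from WTHER2-1 and -3.92 from WTHER2-2. Those for MI7 were -2.35 and -3.69. Without the BeadChip 4 arrays the difference of MI6 from WTHER2-2 was -2.56. In that fit the mean difference between the transgenes was -2.45, without the BeadChip 3 arrays it was -3.81, and the gene was separated in both fits. A further Itga5 probe that passed the filter differed by -1.91. Taken over line means, 2 lines against 2, the difference was -3.13 ± 0.52 (SE), and the limma adjusted p of 0.0971 missed the threshold.

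Itgav encodes alphav, the chain that pairs with beta1, beta3, beta5, beta6 or beta8. It read 9.70, 10.01, 9.91 and 9.93 in MI6 and 11.31, 9.67, 10.13 and 9.86 in MI7. In WTHER2-1 the arrays gave 8.41, 9.10, 9.17 and 8.59, and in WTHER2-2 they gave 9.22, 9.12, 8.47 and 7.89. Every d16HER2 array lay above every WT HER2 array, by a gap that was small beside the spread of MI7. Itgav was the 1 member separated upward, against 3.06% of all genes. Its 4 pair differences ran from 1.07 (limma adjusted p = 0.0253) to 1.57 (limma adjusted p = 0.00211), and the lowest stood close to the threshold of 1. Without the BeadChip 4 arrays the mean difference was 1.07 and the call was lost. It was also lost when WTHER2-2 replicate 4, WTHER2-1 replicate 1 or 4, or MI6 replicate 2, 3 or 4 was left out, with differences of 1.19 to 1.31. Over line means it was 1.32 ± 0.24 (SE), with a limma adjusted p of 0.109, and the other passing Itgav probes differed by 0.61 and 0.1.

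Itgb6, the beta chain of alphavbeta6, an epithelial receptor that activates latent TGF-beta, split the arrays of WTHER2-2. It read 11.21, 10.53, 10.64 and 11.48 in MI6 and 11.31, 11.27, 11.27 and 11.37 in MI7. WTHER2-1 gave 6.96, 7.94, 6 and 7.92, and WTHER2-2 gave 11.47 and 11.54 on BeadChip 3 but 7.64 and 4.99 on BeadChip 4. The 2 BeadChip 3 arrays of WTHER2-2 thus sat at the top of the d16HER2 range, while its BeadChip 4 arrays fell in or below the range of WTHER2-1. Against WTHER2-1, Itgb6 was higher by 3.76 in MI6 (limma adjusted p = 0.0129) and by 4.10 in MI7 (limma adjusted p = 0.00836). Against WTHER2-2 the differences of 2.06 and 2.40 missed the threshold (limma adjusted p = 0.141 and 0.0852), and without BeadChip 4 they were -0.54 and -0.2. The other passing Itgb6 probes differed between the transgenes by 1.74 and 2.49.

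Itga9 encodes alpha9, which pairs with beta1 and binds tenascin-C and the EDA segment of fibronectin, and it was detected on the WTHER2-1 arrays and on no other. WTHER2-1 gave 8.70, 7.69, 8.32 and 8.56, whereas the other 12 arrays lay between 4.57 and 4.98 and never passed detection. The level in WTHER2-1 was at least 6.43-fold above MI6, at least 6.48-fold above MI7 and at least 6.21-fold above WTHER2-2. It passed the detection filter only through the WTHER2-1 arrays, where it is high, so a difference between the WT HER2 lines was fixed by that choice and no p is given for it. The probe used carries no accession in the annotation, and the probe that carries a RefSeq accession was detected on 3 arrays of WTHER2-1, with a mean of 5.61, and did not pass the filter.

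Itgb5, the beta chain of the vitronectin receptor alphavbeta5, was higher in WTHER2-2 than in the other lines. Its means were 10.77 ± 0.12 in MI6 and 10.60 ± 0.37 in MI7. They were 10.51 ± 0.64 in WTHER2-1 and 12.08 ± 0.41 in WTHER2-2, whose lowest array at 11.46 lay above all others. WTHER2-2 exceeded MI6 by 1.31 (difference -1.31, limma adjusted p = 0.0019), MI7 by 1.48 (-1.48, limma adjusted p = 0.000801) and WTHER2-1 by 1.57 (-1.57, limma adjusted p = 0.000623). All 3 calls held without the BeadChip 4 arrays, at -1.53, -1.70 and -1.79.

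Itga8, the chain of an RGD receptor known from kidney mesenchyme, was detected on all 16 arrays with means of 7.21 ± 0.31 in MI6 and 7.10 ± 0.28 in MI7. They were 7.81 ± 0.21 in WTHER2-1 and 6.79 ± 0.44 in WTHER2-2. It was higher in WTHER2-1 than in WTHER2-2 by 1.02 ± 0.23 (limma adjusted p = 0.00361), and its other passing probe differed there by 1.42. That call was lost, at 0.86 to 0.98, when WTHER2-1 replicate 1 or 2 or WTHER2-2 replicate 2 or 4 was left out. It was also lost without BeadChip 3, at 0.88, and with no background correction or the authors' deposited table, at 0.66 in both. Itgb8, whose alphavbeta8 receptor also activates latent TGF-beta, read 7.27, 7.60 and 7.71 on WTHER2-2 replicates 1 to 3 and 5.79 on the last. Its means of 6.32 ± 0.31, 6.16 ± 0.30 and 6.12 ± 0.22 in MI6, MI7 and WTHER2-1 did not differ by the thresholds used. Without BeadChip 4, Itgb8 was lower than in WTHER2-2 in each other line, with differences of -1.31 for WTHER2-1 (limma adjusted p = 0.000599), -1.11 for MI6 (limma adjusted p = 0.0019) and -1.28 for MI7 (limma adjusted p = 0.00068). Of the 9 genes listed in this class 7 were measured, with 1 separated upward, 1 downward and 5 not separated, and the median transgene difference was -0.37 beside 0.03 over all genes tested.

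Among the collagen-binding integrins 1 of 4 was measured. Itga2 encodes alpha2, which with beta1 is the collagen receptor of epithelium and platelets. It read 8.29, 7.86, 7.81 and 7.42 in MI6 and 7.86, 8.67, 8.61 and 7.20 in MI7. WTHER2-1 gave 4.91, 5.39, 5.26 and 5.40, all undetected, and WTHER2-2 gave 8.07 and 8.13 on BeadChip 3 and 5 and 4.82, both undetected, on BeadChip 4. The level was at least 4.90-fold higher in MI6 and at least 5.80-fold higher in MI7 than in WTHER2-1. Itga2 passed the detection filter through the d16HER2 arrays, where it is high, so no p against WTHER2-1 is given. Against WTHER2-2 the differences were 1.34 and 1.58 (limma adjusted p = 0.116 and 0.0638), and without BeadChip 4 they were -0.26 and -0.02.

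The laminin-binding class was measured in full, and the 3 chains of epithelial laminin receptors had higher means in d16HER2 while Itga7 had a lower one. None of the 4 was separated. At an unadjusted limma p under 0.05 over line means, 1 of 4 was higher, Itga3, and 1 was lower, Itga7, against 10.6% and 9% of all genes. The median transgene difference of the class was 1.21, and 0.55 without BeadChip 4, beside 0.03 and 0.04 over all genes.

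Itga3, the alpha chain of the laminin-332 receptor alpha3beta1, averaged 12.78 ± 0.25 in MI6, 12.73 ± 0.30 in MI7 and 11.63 ± 0.27 in WTHER2-1. WTHER2-2 gave 12.68 and 12.75 on BeadChip 3, in the range of the d16HER2 arrays, and 10.37 and 8.67 on BeadChip 4. With all arrays the SD in WTHER2-2 was 1.97, no pair passed, and the smallest limma adjusted p among the pairs was 0.0524. Without the BeadChip 4 arrays, Itga3 was higher than in WTHER2-1 by 1.15 in MI6 (limma adjusted p = 6.38e-05) and by 1.10 in MI7 (limma adjusted p = 0.000103), and differed from WTHER2-2 by 0.07 and 0.02.

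Itga6, the alpha chain of alpha6beta1 and alpha6beta4 that is widely used to sort mammary stem and basal cells, was graded across the lines. The 4 arrays gave 9.54, 9.10, 9.21 and 9.76 in MI6, 9.26, 8.83, 9.13 and 9.79 in MI7, 8.75, 8.81, 8.51 and 8.66 in WTHER2-1, and 7.58, 7.59, 7.59 and 6.70 in WTHER2-2. All WT HER2 arrays lay below all d16HER2 arrays, although the highest array of WTHER2-1 nearly met the lowest of MI7. WTHER2-2 was lower than MI6 by 2.04 (difference of MI6 minus WTHER2-2, limma adjusted p = 1e-05), than MI7 by 1.89 (limma adjusted p = 2.33e-05) and than WTHER2-1 by 1.32 ± 0.24 (limma adjusted p = 0.000709). Without BeadChip 4 these differences were 1.82, 1.67 and 1.10, and all 3 were still called. The call between the WT HER2 lines was lost with no background correction, with the authors' deposited table and with the mean of probes, at 0.94 to 1. Against WTHER2-1 the differences of 0.72 and 0.57 lay under the size threshold of 1. The other passing probes of Itga6 differed between the transgenes by -0.03 and 0.63, so the probes of this gene disagree.

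Itgb4, the partner of alpha6 in the hemidesmosome, averaged 13.68 ± 0.11 in MI6, 13.45 ± 0.16 in MI7 and 13.01 ± 0.11 in WTHER2-1, with no overlap between MI6 or MI7 and WTHER2-1. WTHER2-2 gave 13.31 and 12.84 on BeadChip 3 and 11.02 and 10.41 on BeadChip 4. It was higher in MI6 than in WTHER2-2 by 1.79 (limma adjusted p = 0.00558) and in MI7 by 1.55 (limma adjusted p = 0.0131), and without the BeadChip 4 arrays these calls were lost, at 0.61 and 0.37. Itga7, a laminin receptor chain best known in muscle, was dim in all lines, with means of 5.67 ± 0.32, 6.22 ± 0.63, 7.08 ± 0.68 and 7.32 ± 0.74 in MI6, MI7, WTHER2-1 and WTHER2-2. MI6 was lower than WTHER2-1 by a difference of -1.41 (limma adjusted p = 0.0139), whereas MI7 differed from it by -0.85 (limma adjusted p = 0.125). Against WTHER2-2 the differences were -1.65 for MI6 (limma adjusted p = 0.00443) and -1.10 for MI7 (limma adjusted p = 0.0414), and the call for MI7 was lost without BeadChip 4, at -0.55.

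The shared chain Itgb1, partner of alpha1 to alpha11 and alphav, varied little. Its means were 10.49 ± 0.19, 10.06 ± 0.26, 9.58 ± 0.17 and 9.86 ± 0.05 in the order MI6, MI7, WTHER2-1 and WTHER2-2. MI6 was higher than WTHER2-1 by 0.91 (limma adjusted p = 0.000233) and than WTHER2-2 by 0.62 (limma adjusted p = 0.0035), both under the size threshold, and MI7 and WTHER2-2 differed by 0.20 (limma adjusted p = 0.298). The other passing Itgb1 probe averaged 9, 8.91, 8.86 and 8.80 in the same order. It differed between the transgenes by 0.12, against 0.56 for the probe used. On the WTHER2-2 arrays the probe used averaged 9.85 on BeadChip 3 and 9.88 on BeadChip 4.

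The beta chains of leukocyte integrins were near the detection limit. Itgb2, the beta chain of LFA-1 and Mac-1, averaged 5.89 ± 0.25, 5.75 ± 0.11, 6.39 ± 0.71 and 6.16 ± 0.39, with overlapping arrays. Itgb7, which pairs with alpha4 or alphaE, was detected on no d16HER2 array. It read 4.98, 7.04, 4.67 and 6.06 in WTHER2-1 and 5.43, 6.50, 7.51 and 8.49 in WTHER2-2, where its mean was at least 2.54-fold above that in MI6 and at least 2.56-fold above that in MI7. Without BeadChip 4 these bounds were 1.26-fold and 1.27-fold, with Itgb7 detected on 1 of the 2 BeadChip 3 arrays. Itgb7 passed the filter only through WT HER2 arrays, so no p is given for it. Among 8 leukocyte markers Cd14 alone passed the filter, detected on all 16 arrays. The markers Ptprc, Adgre1, Cd3e, Tyrobp and Laptm5 were detected on no array, as were Itgam and Itgax, the alpha chains of Mac-1 and of dendritic cell integrin. Of 6 leukocyte and platelet alpha chains 3 were measured, none was separated and none had an unadjusted limma p under 0.05, with Itga2b at -0.38 ± 0.34 and Itgal at 0.12 ± 0.25 between the transgenes.

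**Figure D2:**
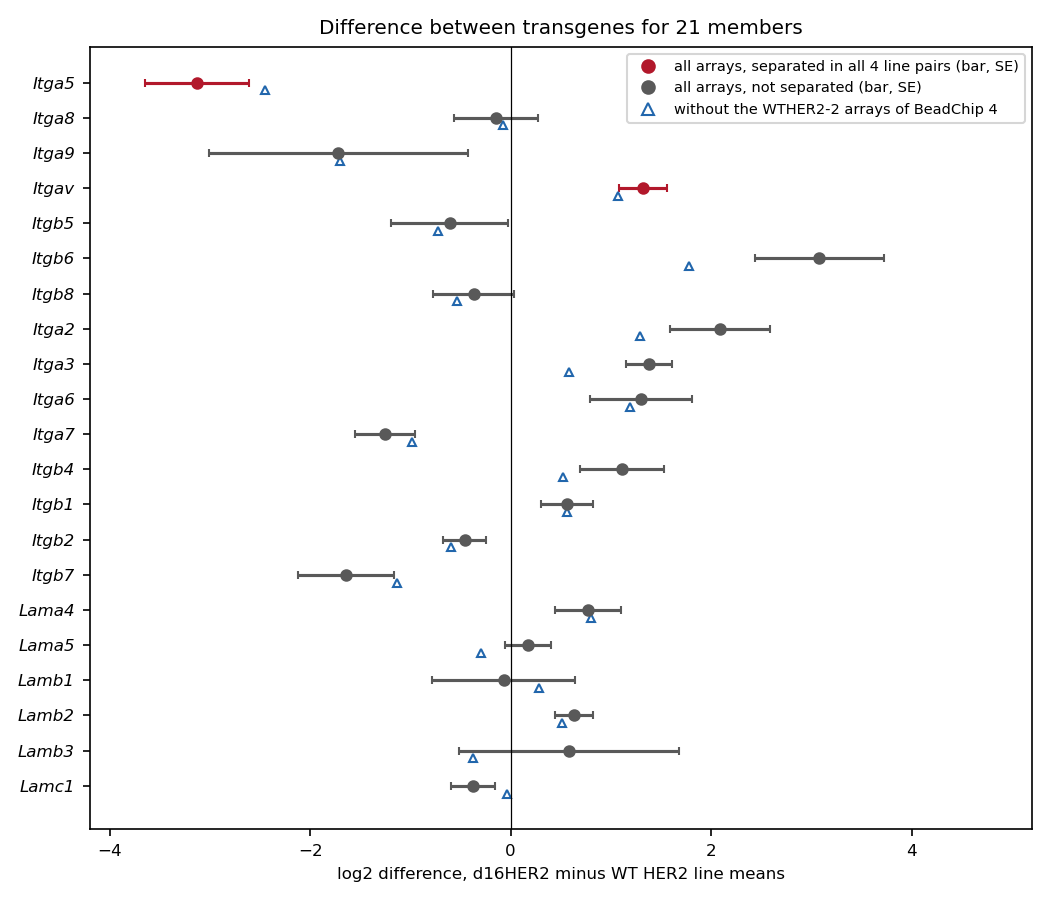
Difference between the d16HER2 and WT HER2 line means of each measured member (log2, with the limma standard error), with all arrays and without the BeadChip 4 arrays of WTHER2-2. Itga5 is at -3.13 and -2.45, Itgav at 1.32 and 1.07, and Lama5, Lamb1 and Lamb3 change sign.

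The laminin chains showed no separated member. Lamb3, the beta chain of laminin-332 that hemidesmosomes rest on, read 12.96, 12.28, 12.27 and 13.12 in MI6 and 12.99, 12.01, 12.28 and 12.82 in MI7. WTHER2-1 gave 13.67, 13.46, 13.57 and 13.63, above every other array. WTHER2-2 gave 12.48 and 12.27 on BeadChip 3, in the d16HER2 range, and 10.16 and 6.91 on BeadChip 4. Lamb3 was higher in WTHER2-1 than in WTHER2-2 by 3.13 ± 0.84 (limma adjusted p = 0.00995), and without BeadChip 4 by 1.21 (limma adjusted p = 0.00288). It was also higher in MI6 than in WTHER2-2 by 2.21 (limma adjusted p = 0.0499), a call lost without BeadChip 4, at 0.29.

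Lamb1, the beta chain of many embryonic and vascular laminins, was lowest in WTHER2-1 and highest in WTHER2-2. Its means were 7.19 ± 0.17 in MI6 and 6.84 ± 0.24 in MI7. They were 6.14 ± 0.46 in WTHER2-1 and 8.04 ± 0.85 in WTHER2-2, so the transgene means, with a difference of -0.07 ± 0.71, say little about either line. WTHER2-1 minus WTHER2-2 was -1.90 ± 0.34 (limma adjusted p = 0.000568), and -1.20 without BeadChip 4 (limma adjusted p = 0.00201). From WTHER2-2, MI6 differed by -0.85 (limma adjusted p = 0.0578) and MI7 by -1.20 (limma adjusted p = 0.011). Without BeadChip 4 these differences were -0.15 and -0.50, and neither was called. Lamb2, the beta chain of laminins at the kidney filter and the muscle synapse, averaged 10.80 ± 0.37, 10.76 ± 0.38, 10.05 ± 0.22 and 10.25 ± 0.30. Its transgene difference of 0.63 ± 0.19 passed at an unadjusted p over line means and not after adjustment (limma adjusted p = 0.198).

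Lama5, the alpha chain of laminin-511 and the most widespread alpha chain of adult epithelial basement membranes, averaged 10.96 ± 0.29, 10.82 ± 0.61, 10.94 ± 0.24 and 10.51 ± 1.07, and no pair of lines was called. Lama4, the alpha chain of vascular and mesenchymal laminin-411, averaged 5.65 ± 0.22 in MI6, 6.12 ± 0.41 in MI7 and 5.44 ± 0.34 in WTHER2-1 and was detected on no WTHER2-2 array. MI7 was at least 1.36-fold above WTHER2-2. Of the 8 arrays that detected Lama4, 7 were d16HER2 arrays, so the filter favoured this difference and no p is given for it. The Lama4 probe used comes from a cDNA clone. The probe with a RefSeq accession was detected on 3 arrays and did not show the difference, with means of 5.48 in MI7 and 5.43 in WTHER2-2. Lamc1, the gamma chain of most laminins, averaged 11.20 ± 0.22, 11.29 ± 0.44, 11.39 ± 0.05 and 11.84 ± 0.79, with both BeadChip 4 arrays, at 12.65 and 12.39, above all others.

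The 9 remaining members are accounted for as follows. Itga10 and Lama3 had no annotated probe and were not analysed here. The probes of Itga1, Lama1 and Lamc3 were detected on no array. Lama2 was detected on 1 array, Itgb3 and Itga11 on 2 each, and the best of 6 Itga4 probes on 1, so none passed the filter. Without Lama3 the laminin-332 trimer was seen through Lamb3 alone, because its gamma chain is not among the members either. Of the 21 that passed, 12 were detected on all 16 arrays and 9 on fewer. Itga5, Itga9, Itga2, Itgb7 and Lama4 would not have passed without the transgene or line in which they are higher, so their differences from the undetected lines were favoured by the filter.

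Over the members together, 11 had a higher and 10 a lower mean in d16HER2, with a median difference of 0.17 beside 0.03 over all genes, and of -0.04 beside 0.04 without BeadChip 4. The line-level limma test called 0 of 21 members against 0.494% of all genes. At an unadjusted p under 0.05 it marked 8 of 21, 5 higher and 3 lower, against 19.6% of all genes, 10.6% higher and 9% lower. Itga5, Itga2 and Itgb7 are among them. These passed the detection filter through the side where they are higher, so the filter favoured them here, as it did Itga5 and Itga2 in the counts that follow. All 8 arrays of a transgene lay apart for 3 members, Itgav and Itga6 upward and Itga5 downward, against 11.6% of all genes, 6.84% upward and 4.73% downward. The separated members were 2 of 21 in either direction, against 5.52% of all genes. Without BeadChip 4 the limma fit separated 0 upward (2.94% of all genes) and 1 downward (2.86%), Itga5, and without BeadChip 3 it separated 4 upward (4.09%), Itgav, Itgb6, Itga2 and Itga3, and 1 downward (2.76%), again Itga5. With 2 lines per transgene the smallest p of an exact permutation test is 0.333, and no label tells if a line's arrays hold separate cultures, so p-values from arrays may measure technical spread alone.

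The single pairs of a d16HER2 and a WT HER2 line called more members, at an adjusted p under 0.05 and a log2 difference of at least 1. MI6 against WTHER2-1 called 7 of 21 (15.7% of all genes) and MI6 against WTHER2-2 called 8 (19.9%). MI7 against WTHER2-1 called 5 (14.5%) and MI7 against WTHER2-2 called 9 (20.1%). These counts hold members that passed the filter through the brighter side and were favoured by it. They are Itga5 in all 4 pairs, Itga9 and Itga2 in the pairs with WTHER2-1, Itgb7 in those with WTHER2-2, and Lama4 in MI7 against WTHER2-2. Pairs with a line in common share its arrays, so these counts are not independent of each other.

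MI6 and MI7 shared BeadChips and did not differ in any member by the thresholds used. The limma fit called 0 of 21 members, against 1.18% of all genes, and 2 members, Itgb1 and Lama4, had an unadjusted p under 0.05, against 9.12% of all genes. The differences of MI6 minus MI7 ran from -0.55 for Itga7 to 0.42 for Itgb1, whose limma adjusted p was 0.281. Within BeadChip 1 and BeadChip 2 they were -0.61 and -0.49 for Itga7, -0.44 and -0.52 for Lama4, 0.61 and 0.23 for Itgb1, and -0.63 and -0.07 for Itgav.

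WTHER2-1 and WTHER2-2 differed in 6 of 21 members, against 15.9% of all genes, with Itga9 among them through the filter. Itga8, Itga9, Itga6 and Lamb3 were higher in WTHER2-1 (8.17% of all genes), and Itgb5 and Lamb1 were higher in WTHER2-2 (7.7%). Without the BeadChip 4 arrays 10 of 21 were called, against 17.3% of all genes, and the 4 added members were all higher in WTHER2-2. These were Itgb6 (-4.30, limma adjusted p = 2.3e-06), Itgb8, Itga2 (-2.86) and Itga3 (-1.08, limma adjusted p = 0.000875). For Itga2 the WTHER2-1 side was undetected, so no p is given. On BeadChip 3, WTHER2-2 therefore carried the epithelial chains Itgb6, Itga2 and Itga3 at levels at or above those in WTHER2-1.

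The BeadChips of WTHER2-2 were set against each other as a description, with 2 arrays each and no test. Of the 21 members 11, or 52.4%, were at least 2-fold apart, against 20.8% of all genes, with 6 higher on BeadChip 3 (11.5% of all genes) and 5 higher on BeadChip 4 (9.32%). Higher on BeadChip 3 were Itgb6 at 11.51 against 6.31, Lamb3 at 12.37 against 8.53 and Itga3 at 12.72 against 9.52, which are folds of 36.7, 14.3 and 9.14. Itgb4 at 13.07 against 10.71 and Lama5 at 11.43 against 9.58 followed, with folds of 5.14 and 3.61. Itga2 was at least 4.76-fold higher, since BeadChip 4 did not detect it, and Itgb6 was detected on 1 of the 2 BeadChip 4 arrays.

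Higher on BeadChip 4 were Itga5 at 10.63 against 7.91, Itgb7 at 8 against 5.97, Lamb1 at 8.74 against 7.33, Lamc1 at 12.52 against 11.16 and Itga7 at 7.86 against 6.77, which are folds of 6.59, 4.08, 2.66, 2.56 and 2.13. Itgb6, Itga3, Itgb4, Itga2, Lamb3 and Lama5 thus went with the epithelial marker list, whose 9 measured markers were all at least 2-fold higher on BeadChip 3 with a median log2 difference of 4. Itga5, Itgb7, Lamb1, Lamc1 and Itga7 moved in the same direction as the fibroblast list. The summed intensity of that list ran from 4690 and 5620 on the BeadChip 3 arrays to 42200 and 26700 on the others. The part of these lists in the members' values was not tested. In the other lines no member was 2-fold apart between BeadChips, against 0.27% of all genes in MI6, 0.41% in MI7 and 2% in WTHER2-1, and the largest difference was 0.91, for Itga7 in WTHER2-1.

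**Figure D3:**
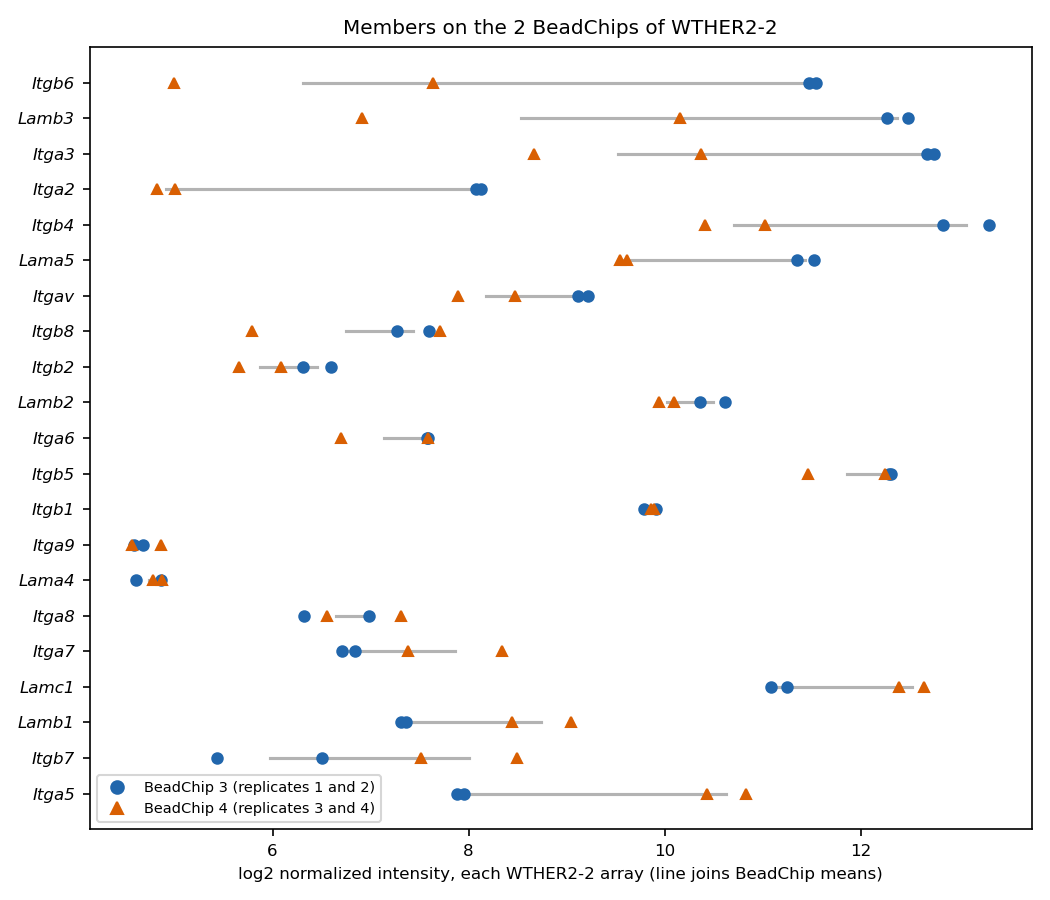
Level of each measured member on the BeadChip 3 and BeadChip 4 arrays of WTHER2-2 (log2 intensity, 2 arrays each). Itgb6, Lamb3, Itga3, Itga2, Itgb4 and Lama5 are higher on BeadChip 3, Itga5, Itgb7, Lamb1, Lamc1 and Itga7 on BeadChip 4, and Itgb1 is level at 9.85 and 9.88.

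**Figure D4:**
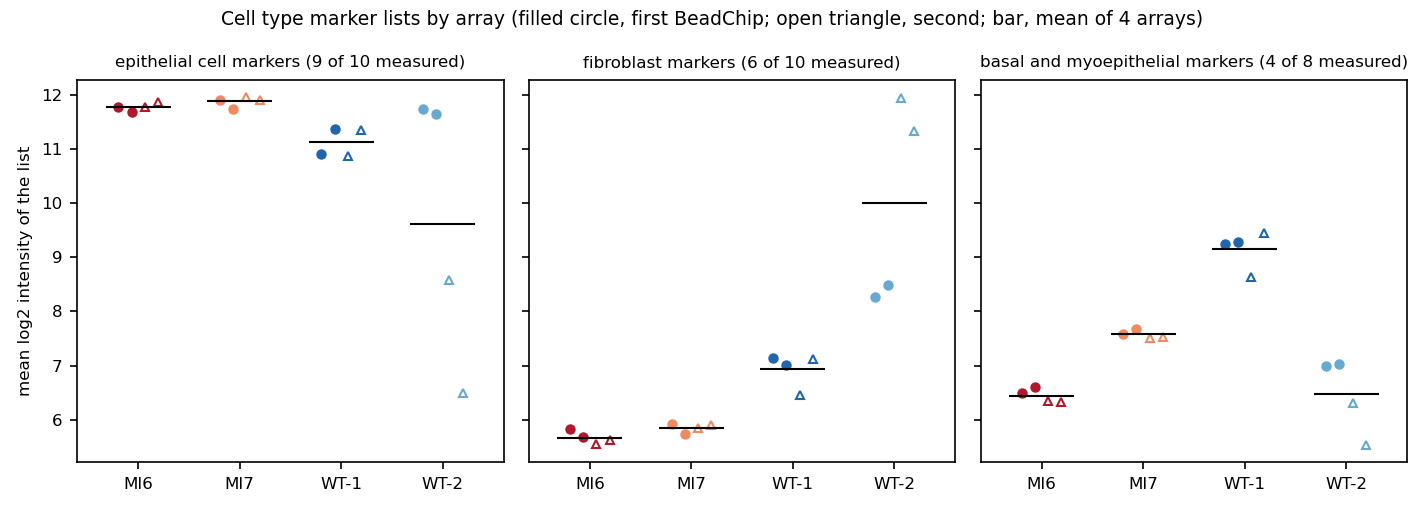
Mean level of the cell type marker lists on each of the 16 arrays (log2 intensity). The epithelial list falls to 8.58 and 6.49 on the BeadChip 4 arrays of WTHER2-2, where the fibroblast list reaches 11.95 and 11.33.

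Cell type marker lists also differed between lines. All 9 measured epithelial markers had a higher mean in d16HER2, as had Itgb6, Itga2, Itga3 and Itgb4, with a median difference of 1.54, and of 0.52 without BeadChip 4. Epcam was separated upward with all arrays. The fibroblast list lay at 5.55 to 5.82 in MI6 and 5.74 to 5.92 in MI7, and at 6.46 to 7.14 in WTHER2-1 and higher in WTHER2-2, so it was higher in the WT HER2 lines, as was Itga5. Pdgfra, 1 of the 6 measured fibroblast markers, was separated downward at -5.2, against 2.46% of all genes. It was detected on 3 d16HER2 arrays and on all 8 WT HER2 arrays, so the filter favoured this call. Of 8 basal markers 4 were measured, and the list mean was 6.32 to 6.61 in MI6 and 7.51 to 7.68 in MI7. On the WTHER2-1 arrays it was 8.63 to 9.46. On those of WTHER2-2 it was 5.53 to 7.03, which overlaps MI6, so the list mean did not follow the transgenes. All 4 measured basal markers had a lower mean in d16HER2, with a median of -0.34. Trp63 among them was separated downward. It was detected on 0 d16HER2 and 7 WT HER2 arrays, so the filter favoured that call too. Of 6 endothelial markers, Pecam1, Cdh5, Emcn and Tie1 were detected on no array, whereas Kdr was detected on all 16 and Tek on 9, with transgene differences of 0.03 ± 0.23 and 0.12 ± 0.24. The part of these lists in the members' transgene differences was not tested.

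Genes that act with the members were then counted by list. Of 23 genes of the integrin adhesion complex 20 were measured and 1 was separated, upward, against 3.06% of all genes. Fermt2, kindlin-2, which binds the tail of beta integrins to activate them, averaged 13.31 ± 0.17 in MI6 and 13.35 ± 0.13 in MI7, against 11.38 ± 0.30 and 11.64 ± 0.20 in WTHER2-1 and WTHER2-2. The difference of 1.82 ± 0.16 had a line-level limma adjusted p of 0.0521, and it was 1.78 without BeadChip 4. The other 19 were not separated, and the list's median difference was 0.26.

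Of 7 hemidesmosome and laminin receptor genes 6 were measured. All 6 had a higher mean in d16HER2, with a median of 0.20, and none was separated, while 1 had an unadjusted limma p under 0.05 over line means, against 19.6% of all genes. Dag1, dystroglycan, a laminin receptor outside the integrin family, differed by 0.77 ± 0.21 (limma adjusted p = 0.175), and Plec, the plectin that ties alpha6beta4 to keratin, by 0.24 ± 0.26. Of 11 basement membrane genes 9 were measured, with a median of 0.01 and none separated, while 1 had an unadjusted p under 0.05, against the same share. Sparc, a matrix protein that binds collagen IV, differed by -3.64 ± 1.25 (limma adjusted p = 0.238), and Nid1, nidogen, which links laminin to collagen IV, by -1.32 ± 1.69 (limma adjusted p = 0.724), and by -0.48 without BeadChip 4.

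Of 18 other integrin ligand genes 12 were measured, and 1 was separated upward and 2 downward, against 3.06% and 2.46% of all genes. Fn1, the fibronectin bound by alpha5beta1, averaged 7.21 ± 0.65 in MI6 and 10.35 ± 0.91 in MI7. Its means were 12.21 ± 0.47 in WTHER2-1 and 14.45 ± 0.24 in WTHER2-2. It was separated downward, as was Itga5, with a mean difference of -4.55 ± 1.36 (line-level limma adjusted p = 0.201), and of -4.46 without BeadChip 4. Col6a1, a collagen VI chain, was also separated downward (line-level limma adjusted p = 0.0675). It was detected on all MI7 arrays and on none of MI6, and was at least 108-fold higher in WTHER2-1 than in MI6. In WTHER2-2 it was at least 71.9-fold higher than in MI6, and at least 25.7-fold without BeadChip 4. Edil3, a secreted RGD ligand of alphavbeta3 and alphavbeta5, was separated upward. It was detected on all 8 d16HER2 arrays and on 2 WT HER2 arrays. Edil3 thus passed the detection filter through the d16HER2 arrays, where it is high, so the filter favoured this call and no p is given. No WTHER2-1 array detected it, and it was at least 2.99-fold higher in MI6 and at least 5.29-fold higher in MI7 than there. The median of the list was -0.76, and 0.02 without BeadChip 4.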

How the data were processed

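RNA of 4 mouse mammary tumour lines was hybridised to 16 Illumina BeadChip arrays, 4 per line, per the labels. The authors deposited a non-normalized intensity per probe and array with a detection p-value beside it, per the file headers. They also deposited a normalized intensity table on the linear scale, whose log2 values were used as an alternative. Per the submitters' processing notes, BeadStudio was used, and its version is not given in the sources used here. The labels give no replicate numbers, so arrays were numbered in accession order. Precision is limited by the number of arrays.

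Intensities were corrected with the neqc function of limma 3.58.1 (R 4.3.3, statmod 1.5.0), which takes the background from the detection p-values, adds an offset of 16 and quantile-normalizes. The offset pulls differences of dim probes towards 0. Probes needed a detection p under 0.05 on at least 4 arrays, which 20152 of 45281 did. The platform annotation gave 34885 probes 1 symbol, 18 several and 10378 none, and 34807 matched RefSeq by gene ID. The brightest passing probe stood for each of 10724 genes. Limma compared 2 line means with 2, with an intensity trend, and fitted the 4 lines to the 16 arrays for pairs of lines. P-values were adjusted over all genes by Benjamini-Hochberg. The members, the lists, the rule for naming genes (every measured member, the separated members of each other list or else the 2 with the largest differences) and the tests were chosen with earlier results of these data known. The fits were tested on simulated data. Alternatives changed the background correction, the normalization, the filter, the probe rule, the arrays, the lines and the BeadChip block.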

Additional observations from a re-analysis of the deposited data

Results flagged for a closer look

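Of 84 sets of 4 arrays (each measured member in each line), 5 held 1 array far from the other arrays of its line by Dixon's test, a rate at which chance flags about 1 set in 20. On MI7 replicate 4, Itga8 read 7.52, against 6.93 to 6.99 on the other arrays of the line. Itgb1 read 10.77 on MI6 replicate 1, against 10.36 to 10.41. Lama5 read 11.39 on the same array, against 10.79 to 10.86. On WTHER2-2 replicate 4, 1 of the 2 arrays of BeadChip 4, Itgb5 read 11.46, against 12.25 to 12.31, and Itga6 read 6.70, against 7.58 to 7.59.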

How the results depend on the processing

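The separated call of Itga5, which the detection filter favoured, held in every alternative run. Between the WTHER2-2 BeadChips, 10 or 11 members were at least 2-fold apart in the alternatives run for that count. These alternatives were chosen after seeing the data. The count of members separated upward, 1 with all choices as reported, was 0 with no background correction, with the authors' deposited normalized table, with median scaling, with probes averaged per gene, without BeadChip 4 and with the BeadChip as a random block, and 4 without BeadChip 3. Itgav then differed by 1.17, 1.17, 1.43, 0.68, 1.07 and 1.32 in the settings that lost it. Leaving out 1 array at a time gave 0 to 3 members upward, 1 to 2 downward, 0 to 0 at line level, 0 to 0 between MI6 and MI7, and 6 to 9 between the WT HER2 lines. The line-level test passed 10 members without WTHER2-1, 7 without WTHER2-2 and 3 with the line as a random block, and the cause was not tested. The WT HER2 lines differed in 6 members, in 10 without BeadChip 4, in 11 without BeadChip 3, and in 4 with no background correction or with the authors' deposited table. Over all genes the line-level count of 53 became 0 without a detection filter or without BeadChip 3 or 4. It became 126 with detection on at least 8 arrays, 1692 with the random block, and 0 to 142 with 1 array left out. The count over all genes also rose without WTHER2-1 or without WTHER2-2, and fell without MI6 or MI7. Each of these fits leaves a transgene with 1 line. The rise in passing members without a WT HER2 line was thus not confined to the members. Median scaling put the median of all genes at 0.1, against 0.03.

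Signs of the transgene difference changed without BeadChip 4 for Lama5 (-0.3), Lamb1 (0.28) and Lamb3 (-0.38), without MI7 for Lamb1 (0.1), without WTHER2-1 for Itga8 (0.36) and Itga9 (0.1), and without WTHER2-2 for Itgb5 (0.18), Itgb8 (0.12), Lama5 (-0.05), Lamb1 (0.88) and Lamb3 (-0.99). With 1 array left out, Lamb1 ran from -0.2 to 0.09, with 0.02 as its other positive value, and Lamb3 from -0.02 to 0.91. Between the WT HER2 lines, signs changed without BeadChip 4 for Itga5 (0.02), Itgav (-0.35), Itga3 (-1.08), Itga7 (0.3), Itgb4 (-0.07), Itgb2 (-0.06), Lama5 (-0.49) and Lamc1 (0.23), and without BeadChip 3 for Itgb6 (0.89), Itga2 (0.33) and Lamb2 (0.04). They also changed for Lamb2 with median scaling (0.08) and Itgav with the mean of probes (-0.02). With 1 array left out, the ranges that crossed 0 were -0.03 to 0.52 for Itgb2, -0.45 to 0.1 for Itga7, which also read 0.09, -0.12 to 0.32 for Itgav and -0.3 to 1.06 for Itga3.

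Between MI6 and MI7, Lamc1 changed sign with median scaling (0.01) and the mean of probes (0.05), and so did Itga8 (-0.15) and Itga6 (-0.14) with the mean of probes. With 1 array left out, ranges crossed 0 for Lama5 (-0.11 to 0.39, with -0.01), Lamb2 (-0.14 to 0.17, with -0.13), Itga8 (-0.03 to 0.25), Itga3 (-0.08 to 0.15), Lamb3 (-0.04 to 0.29, with -0.02) and Lamc1 (-0.23 to 0.08). Reversed values from fits that left a transgene with 1 line, such as Lamb3 without WTHER2-2, are given as sizes only. Of the other reversed values, only that of Itga3 between the WT HER2 lines without BeadChip 4 passed the test in its setting. No paired analysis was possible because the labels give no replicate numbers, and the BeadChip was used as a block instead, fixed for MI6 against MI7 and random in the fit of all 4 lines. For probes near the detection limit, such as Itga7, Itgb2, Itgb7 and Lama4, the signal over background limits what can be read.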
